A study of Mus musculus with 9 samples.

Results

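Enzymes and channels that make, destroy or respond to cyclic nucleotides and calcium were examined in RNA-sequencing counts from the dermis of mouse ears. The members were taken by gene symbol: adenylyl cyclases (Adcy), guanylyl cyclases (Gucy), cyclic nucleotide phosphodiesterases (Pde), subunits of protein kinase A (Prka) and protein kinase G (Prkg), phospholipases C (Plc), IP3 receptors (Itpr), ryanodine receptors (Ryr), calcium pumps (Atp2a and Atp2b), the pore subunits of voltage-gated calcium channels (Cacna1) and the CaMKII family (Camk2). Of 52550 genes in the table, 92 matched these symbol stems, and 90 remained once the skeletal muscle genes Atp2a1 and Cacna1s were taken out. The rule uses gene symbols and no measured value, although it was set with earlier results of these data known. Enough counts for a test were found for 78 of the 90 members, and the other 12 are described by their counts.

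The 9 libraries came from wild-type C57BL/6 mice of 8 weeks, which the study's methods give as male, and formed 3 groups of 3. VAS+H2O mice had vaseline on the ear for 5 days and 200 µl of water by gavage for 10 days. IMQ+H2O mice had imiquimod cream, which produces psoriasis-like dermatitis, in place of vaseline, and IMQ+XYF mice had imiquimod and 200 µl of the Chinese herbal decoction Xiao-Yin-Fang (XYF, 23.3 mg/g) in place of water. No group received vaseline with XYF, so values of XYF were seen only beside imiquimod. The methods mention ear sheets from more than 1 mouse without saying whether a library pooled animals, so the p-values below measure the spread between libraries.

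In these pathways, adenylyl cyclases make cAMP downstream of G proteins, and guanylyl cyclases make cGMP in response to nitric oxide or natriuretic peptides. Phosphodiesterases break both messengers down, and protein kinases A and G carry their signal. Phospholipases C cut a membrane lipid into IP3 and diacylglycerol, IP3 opens calcium channels of the endoplasmic reticulum, calcium pumps clear the cytosol, and calcium bound to calmodulin activates CaMKII. In skin, calcium guides keratinocyte differentiation, while cAMP and cGMP set the tone of vascular smooth muscle and the permeability of vessels.

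Libraries held between 28756305 and 79836881 counts, of which the members took between 0.300% and 0.372% and mitochondrial genes between 8.21% and 14.3%. Levels are CPM (read counts scaled to library size) with TMM factors, given in the order of replicates 1 to 3, and levels of different genes are compared only as CPM per kilobase of exon. The label dermis was checked against 16 lists of cell type markers, and the plot of summed marker levels gives them for every library. The 10 dermal fibroblast markers summed to between 12539 and 28171 CPM, and none was at 0 in all libraries of a group. The 10 markers of epidermal keratinocytes summed to between 2457 and 7441 CPM in 6 libraries without XYF and to 16860, 4379 and 5777 CPM in the IMQ+XYF libraries, so that IMQ+XYF replicate 1 stood apart. That library also had the lowest sum of the 15 skeletal muscle markers, 162 CPM, against 724 to 3461 CPM in the other 8. IMQ+XYF replicate 2 had the lowest sum of the 10 endothelial markers, 606.7 CPM, and 2567 CPM of the 13 cartilage markers, against 869 and 1475 CPM in the other two IMQ+XYF libraries.

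**Figure D1:**
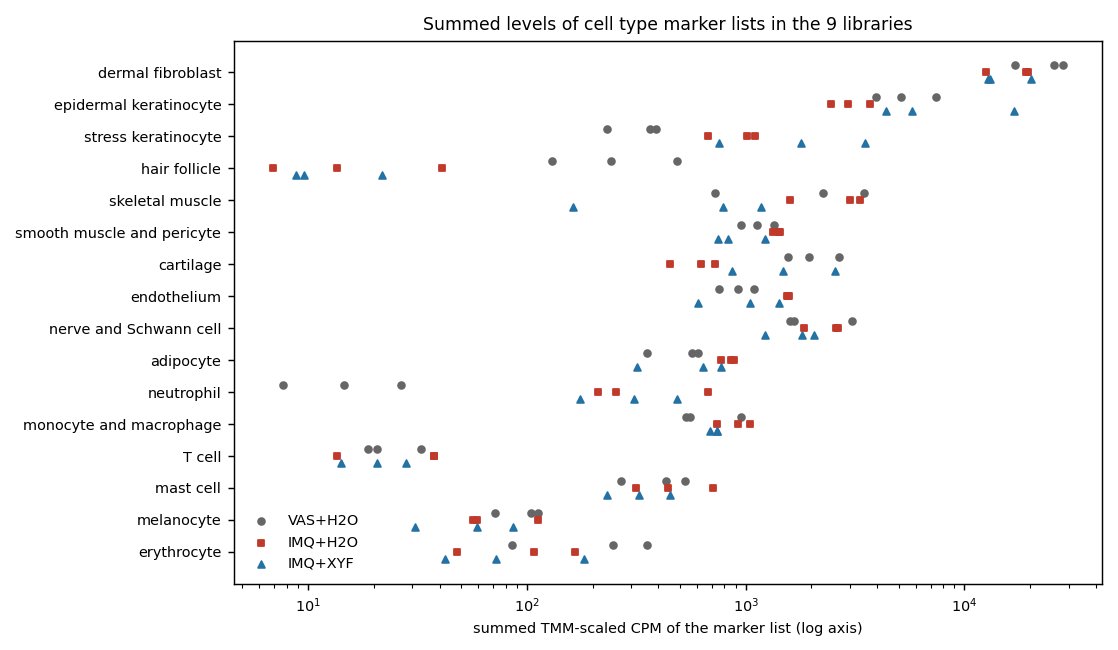
Summed TMM-scaled CPM (log axis) of 16 cell type marker lists, with a point for each library and a color and shape for each group. The IMQ+XYF libraries spread from 162 to 1174 CPM for skeletal muscle and from 4379 to 16860 CPM for epidermal keratinocyte markers.

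Members differed widely in level, as the plot of levels per kilobase shows. The highest was Atp2a2, the calcium pump SERCA2 of the endoplasmic reticulum, at a mean of 59.1 CPM per kilobase over the 9 libraries. It was followed by Prkar1a, a regulatory subunit of protein kinase A, at 53.0 CPM per kilobase, Itpr3 (IP3 receptor type 3) at 27.5, and Plcd1 (phospholipase C delta) at 22.1. In the other families the highest levels per kilobase were those of Pde4dip at 15.6, Atp2b4 at 13.4, Adcy6 at 13, Camk2n1 at 11.0, Cacna1g at 8.48, Gucy1b3 at 5.43, Prkg2 at 1.56 and Ryr3 at 0.182. Pde4dip and Camk2n1 lead their families by name only, since Pde4dip encodes a protein that binds a phosphodiesterase and Camk2n1 an inhibitor of CaMKII. Among enzymes that hydrolyze cyclic nucleotides, Pde8a had the highest level at 12.4 CPM per kilobase, and among the CaMKII subunits Camk2g had it at 6.26.

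**Figure D2:**
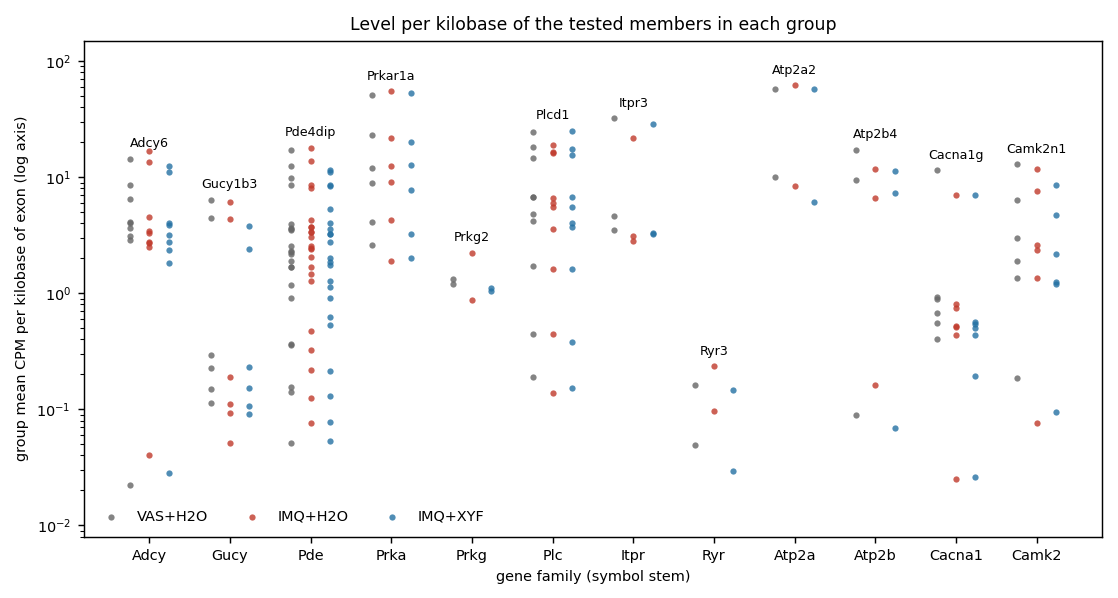
Group mean CPM per kilobase of exon (log axis) of the 78 tested members, by family, with a point for each member in each group and the leading member named. Atp2a2 and Prkar1a stood highest in all 3 groups, and Ryr3 was the lowest of the leading members.

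The first comparison, IMQ+H2O against VAS+H2O, asked what imiquimod changed. Calls required an adjusted p (Benjamini-Hochberg, edgeR's quasi-likelihood test) of at most 0.05 together with a log2 fold change of at least 1 in either direction. By this rule 0 of 78 members were called, against 0.994% of all 22430 genes tested. DESeq2 also called 0 members, against 3.83% of all genes. Without the fold limit 1 member passed in edgeR, the T-type calcium channel Cacna1g, against 1.37% of all genes. DESeq2 gave more members an adjusted p under 0.05 below the fold limit. Lower were Cacna1g (2.38e-05), Atp2b4 (0.00366), Atp2b1 (0.00424), Adcy9 (0.0184), Itpr3 (0.0260) and Itpr1 (0.0381). Higher were Adcy4 (0.00119, log2 fold change 0.9997), Pde1a (0.0124) and Pde9a (0.0169). The share of all genes at this limit in DESeq2 is not given here. In edgeR's fit an unadjusted p under 0.05 was seen for 18 members or 23.1%, against 20.9% of all genes. Of these, 6 were higher (7.69%, all genes 10.1%) and 12 lower (15.4%, all genes 10.8%). The 2 groups had no overlap between their libraries for 23 members (29.5%, all genes 31.5%), 8 of them higher (all genes 15.1%) and 15 lower (all genes 16.5%). The median log2 fold change of the members was −0.06, beside −0.02 over all genes.

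IMQ+XYF against IMQ+H2O asked what XYF changed under imiquimod. edgeR called 0 members, against 0.00892% of all genes, and the lowest adjusted p of any member was 0.360. DESeq2's Wald test called 2 members, against 1.17% of all genes. They were the phosphodiesterases Pde2a (log2 fold change −1.71, adjusted p = 0.00248) and Pde9a (log2 fold change −1.07, adjusted p = 0.0159). Below the fold limit, DESeq2 also gave an adjusted p under 0.05 to Gucy1a3 (log2 fold change −0.85, adjusted p = 0.0366) and Plcb4 (log2 fold change −0.82, adjusted p = 0.0372). In edgeR's fit an unadjusted p under 0.05 was seen for 25 members or 32.1%, against 11.7% of all genes. Of these, 5 were higher (6.41%, all genes 6.35%) and 20 lower (25.6%, all genes 5.39%). For 31 members (39.7%, all genes 18%) the 2 groups had no overlap between their libraries, with 5 higher (all genes 9.22%) and 26 lower (33.3%, all genes 8.74%). The median log2 fold change of the members was −0.17 (SD 0.12 over the 3 IMQ+XYF libraries), beside 0.01 over all genes. Without IMQ+XYF replicate 1 the lower members at an unadjusted p under 0.05 numbered 12 (all genes 3.61%), and without IMQ+H2O replicate 1 they numbered 13 (all genes 3.97%).

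Several marker lists moved with the lower members in IMQ+XYF against IMQ+H2O. All 15 skeletal muscle markers had a lower level, with a median log2 fold change of −1.72 and sums of 1590 to 3336 CPM against 162 to 1174 CPM. All 10 endothelial markers were lower, with a median of −0.66 and sums of 1541 to 1586 CPM against 606.7 to 1416 CPM. Of 11 smooth muscle and pericyte markers, 10 were lower, with a median of −0.87 and sums of 1335 to 1434 CPM against 751 to 1223 CPM. Lower levels were also seen for 8 of 8 mast cell markers, with a median of −0.62 and sums of 316 to 712 CPM against 232 to 449 CPM, for 8 of 9 nerve and Schwann cell markers, with a median of −0.55 and sums of 1845 to 2635 CPM against 1229.6 to 2046 CPM, and for 8 of 9 monocyte and macrophage markers, with a median of −0.42 and sums of 738 to 1051 CPM against 691 to 743 CPM. All 10 keratinocyte markers and all 12 tested cartilage markers were higher, with medians of 1.48 and 1.47. None of these genes was called, and only the cartilage marker Matn1 was at 0 in all 9 libraries. Their part in the members' values was not tested, and in bulk tissue fewer cells of a type cannot be told apart from less RNA per cell.

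IMQ+XYF against VAS+H2O compared treated with control skin. edgeR called 0 members, against 1.2% of all genes. Without the fold limit 4 members passed in edgeR, against 2.02% of all genes. These were Cacna1g, the plasma membrane calcium pump Atp2b4 and the CaMKII inhibitor Camk2n1, which were lower, and the phosphodiesterase Pde1a, which was higher. DESeq2 called 1 member, Camk2b (log2 fold change −1.28, adjusted p = 0.0271), against 3.18% of all genes. Below the fold limit, DESeq2 also gave Cacna1g, Atp2b4, Camk2n1 and Pde1a an adjusted p under 0.05. So it did for Atp2a3 (0.00318), Gucy1a3 (0.00943), Adcy7 (0.0166), Cacna1a (0.0218) and Pde8b (0.0272), all lower. With edgeR an unadjusted p under 0.05 was seen for 20 members or 25.6%, against 18.3% of all genes, 3 of them higher (all genes 9.58%) and 17 lower (all genes 8.76%). No overlap was seen for 23 members (29.5%, all genes 22.1%), 3 of them higher (all genes 11.7%) and 20 lower (all genes 10.3%). The median log2 fold change was −0.27, beside −0.02 over all genes. Each pair of these 3 comparisons shares 1 group of libraries, so the members' values are given side by side for the 3 groups, and no overlap between comparisons is read as a result.

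**Figure D3:**
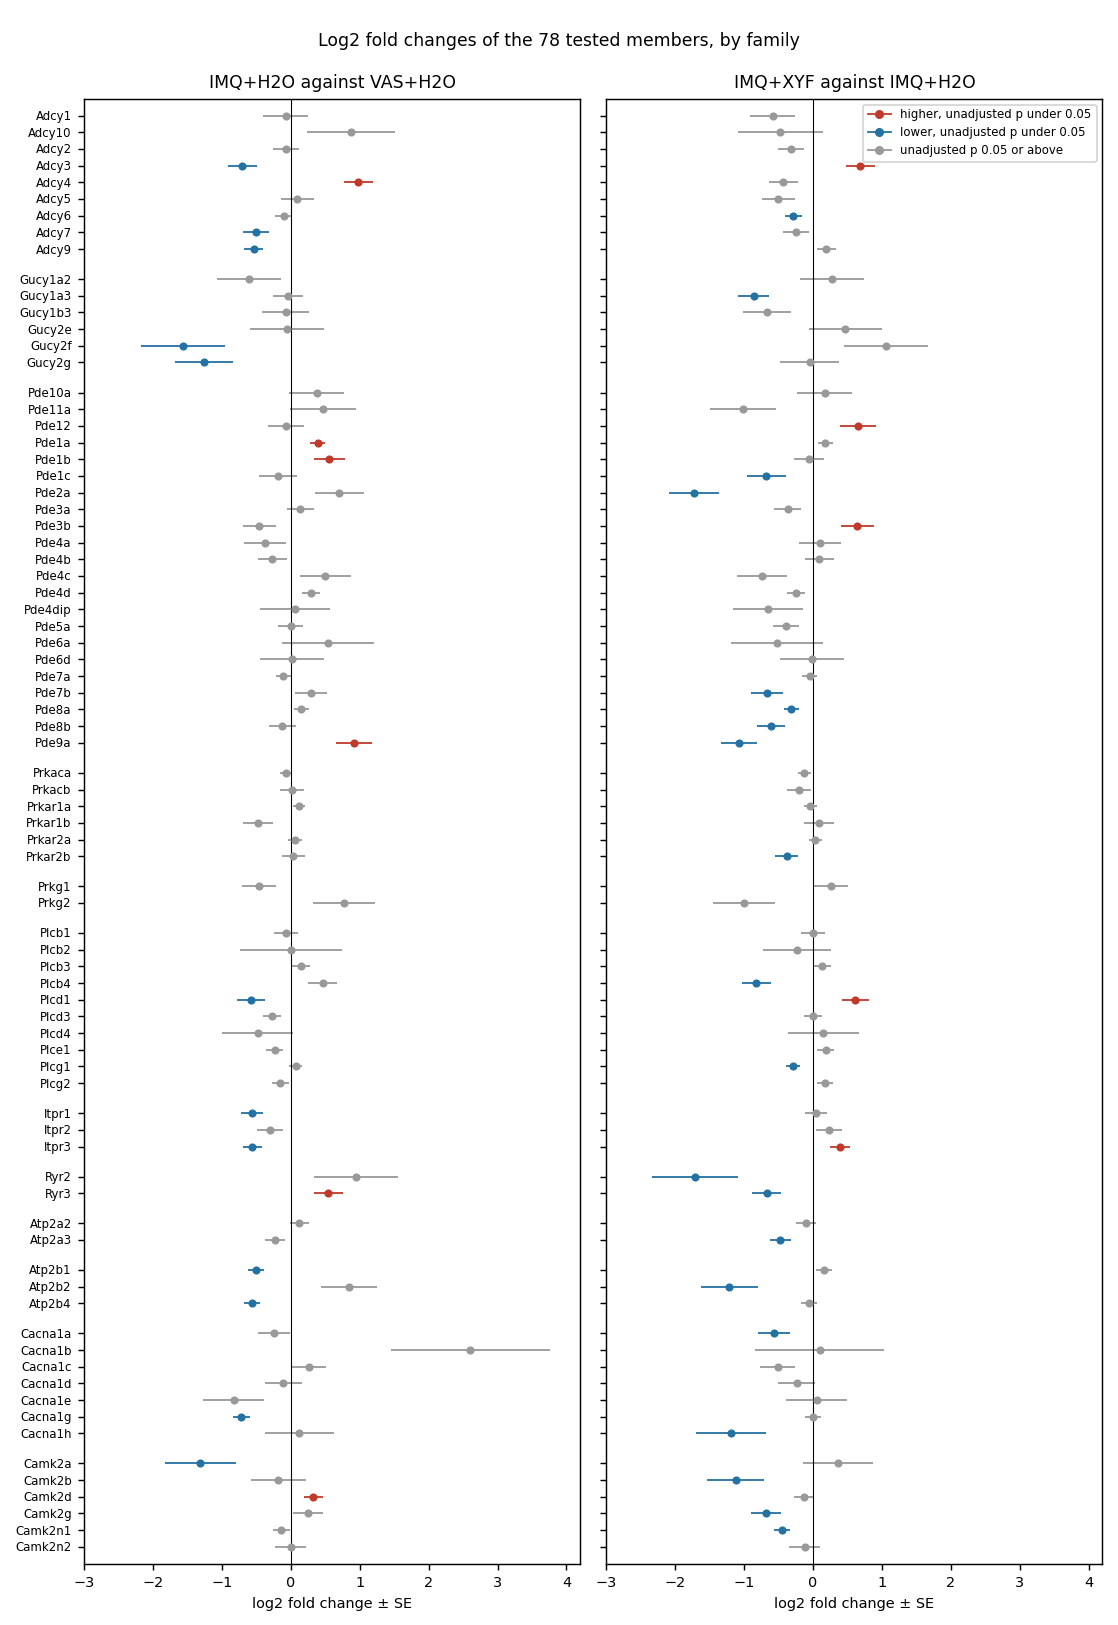
Log2 fold change ± SE of the 78 tested members from edgeR's fit over 9 libraries, by family, for IMQ+H2O against VAS+H2O (left) and IMQ+XYF against IMQ+H2O (right). Red and blue mark an unadjusted p under 0.05, with 6 members higher and 12 lower on the left and 5 higher and 20 lower on the right, and the wide interval of Cacna1b rests on at most 28 counts in a library.

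Adenylyl cyclases, the makers of cAMP, had 9 tested members of 10. Their summed level was 284 to 326 CPM in VAS+H2O, 289.7 to 332 in IMQ+H2O and 239 to 276 in IMQ+XYF, where every library was below the other 6. Adcy4, an isoform stimulated by G protein beta-gamma subunits, stood at 38.2, 32.8 and 49.3 CPM in VAS+H2O, 75.7, 85.9 and 75.4 CPM in IMQ+H2O and 51.1, 46.9 and 77.7 CPM in IMQ+XYF. The IMQ+H2O libraries all lay above the VAS+H2O libraries, with a log2 fold change of 0.98 ± 0.21 (adjusted p = 0.0640), and IMQ+XYF overlapped IMQ+H2O. Adcy4 was called in this comparison in a fit of these 2 groups alone (log2 fold change 1.01, adjusted p = 0.0241) and where a CPM of 1 in 3 libraries was required (log2 fold change 1.02, adjusted p = 0.0450). The endothelial markers moved with it, since all 10 were higher in IMQ+H2O than in VAS+H2O, with sums of 1541 to 1586 CPM against 754 to 1097 CPM. The part of those cells in the Adcy4 values was not tested.

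Other cyclases had lower values under imiquimod. Adcy3, an isoform known from olfactory cilia, was at 30.5, 23.9 and 22.4 CPM in VAS+H2O, 19.1, 15 and 13 CPM in IMQ+H2O and 27.8, 29 and 18.9 CPM in IMQ+XYF. It was lower in all 3 IMQ+H2O libraries than in any VAS+H2O library (a log2 fold change of −0.71 ± 0.21, adjusted p = 0.123) and higher with XYF (a log2 fold change of 0.69 ± 0.21, adjusted p = 0.364), where 1 IMQ+XYF library lay within the IMQ+H2O range. Adcy3 shares 1380 exonic bases with Cenpo on the other strand, and whether counting used the strand was not given in the sources used here. Adcy9, the isoform least sensitive to forskolin, was at 21, 20.6 and 21 CPM in VAS+H2O, 14.4, 14.4 and 14.4 CPM in IMQ+H2O and 14.2, 20 and 15.1 CPM in IMQ+XYF, so that its 3 IMQ+H2O libraries lay closer together than those of any other group (a log2 fold change of −0.54 ± 0.14, adjusted p = 0.0889). Adcy7, an isoform of immune cells, was at 45.2, 48.8 and 37.2 CPM in VAS+H2O, 22.5, 37.8 and 31.7 CPM in IMQ+H2O and 26.6, 27.7 and 23.3 CPM in IMQ+XYF. Its mean was lowest in IMQ+XYF, with a log2 fold change of −0.76 ± 0.19 against VAS+H2O (adjusted p = 0.0785). Adcy6, a calcium-inhibited isoform and the highest per kilobase, had a log2 fold change of −0.11 ± 0.12 under imiquimod and a log2 fold change of −0.29 ± 0.12 with XYF (adjusted p = 0.420). Adcy1, Adcy2 and Adcy5 had log2 fold changes from −0.59 to −0.32 with XYF, none past an unadjusted p of 0.05, and Adcy10, the soluble cyclase, stayed under 0.7 CPM.

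Guanylyl cyclases had 6 tested members of 9. Gucy1a3 and Gucy1b3 encode the alpha and beta subunits of the nitric oxide receptor, and current annotation names them Gucy1a1 and Gucy1b1. Gucy1a3 (ENSMUSG00000033910, chr3:82092427-82145789) stood at 23.7, 29.1 and 40.6 CPM in VAS+H2O, 28.7, 33.3 and 29 CPM in IMQ+H2O and 16.6, 13 and 20.4 CPM in IMQ+XYF. Gucy1b3 (ENSMUSG00000028005, chr3:82032006-82074689) stood at 19.8, 28 and 27.6 CPM in VAS+H2O, 21.9, 28.2 and 21.3 CPM in IMQ+H2O and 18.1, 7.04 and 19.7 CPM in IMQ+XYF. In both subunits every IMQ+XYF library lay below every library of the other groups. Against IMQ+H2O the difference was a log2 fold change of −0.86 ± 0.22 for Gucy1a3 (adjusted p = 0.363, DESeq2 0.0366) and a log2 fold change of −0.67 ± 0.34 for Gucy1b3 (adjusted p = 0.470). IMQ+XYF replicate 2 was lowest for both, and without it the log2 fold change of Gucy1a3 was −0.69 and that of Gucy1b3 −0.30. That library was lowest in endothelial markers, and also in nerve and Schwann cell, adipocyte, mast cell and melanocyte markers. Smooth muscle and pericyte markers were lowest in IMQ+XYF replicate 1, at 751 CPM against 827 CPM in replicate 2. The part of these cells in the subunit values was not tested. Under imiquimod the subunits had a log2 fold change of −0.04 ± 0.22 and a log2 fold change of −0.08 ± 0.34.

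The 2 subunit genes are neighbors on the minus strand of chromosome 3. Their upstream sequences are shown because both subunits had their lowest levels in the IMQ+XYF libraries, although only Gucy1a3 had an unadjusted p under 0.05. The 250 bases before each start listed by RefSeq (build GRCm38.p6, minus strand, 5′ to 3′) are in lower case, and capitals mark matches to the motifs searched. The Gucy1a3 windows are chr3:82145074-82145323 and chr3:82145651-82145900, and the Gucy1b3 window is chr3:82074712-82074961.
Gucy1a3, downstream window: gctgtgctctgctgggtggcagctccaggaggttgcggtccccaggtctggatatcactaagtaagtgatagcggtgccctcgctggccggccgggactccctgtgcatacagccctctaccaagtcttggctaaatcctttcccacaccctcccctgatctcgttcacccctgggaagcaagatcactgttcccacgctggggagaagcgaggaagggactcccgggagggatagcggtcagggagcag
Gucy1a3, upstream window: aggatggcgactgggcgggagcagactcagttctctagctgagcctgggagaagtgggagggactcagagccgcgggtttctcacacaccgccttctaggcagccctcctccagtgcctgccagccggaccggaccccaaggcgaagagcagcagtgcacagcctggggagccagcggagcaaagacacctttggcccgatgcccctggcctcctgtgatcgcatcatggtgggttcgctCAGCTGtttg
Gucy1b3: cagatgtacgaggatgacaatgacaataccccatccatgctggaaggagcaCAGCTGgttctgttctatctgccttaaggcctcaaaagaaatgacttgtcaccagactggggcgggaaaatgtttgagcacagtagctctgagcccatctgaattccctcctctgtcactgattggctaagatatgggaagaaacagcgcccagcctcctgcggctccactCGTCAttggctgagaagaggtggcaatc
The searches used both strands for the short core of the cAMP response element (TGACG, printed as CGTCA where it lies on the other strand), the myogenic E-box (CAGCTG) and the CArG box of serum response factor. The Gucy1b3 window held 1 CRE core and 1 E-box, the upstream Gucy1a3 window 1 E-box, and no window a CArG box. RefSeq gave 118 windows for 68 of the 90 members. The CRE core was present in 16.9% of these and in 17.8% of all 32851 windows, the E-box in 15.3% against 13%, and the CArG box in 0 of 118 against 1.47%. Members that were lower with XYF at an unadjusted p under 0.05 had 28 windows, which came from 13 of the 20 genes. The CRE core was present in 1 of these windows (3.57%) and the E-box in 4 (14.3%). By gene this was 1 of 13 for the CRE core and 4 of 13 for the E-box, beside 19.8% and 14.7% of all genes. A match describes letters in this window and shows no binding.

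The third soluble subunit with a test, Gucy1a2, had between 0.825 and 2.72 CPM. The membrane guanylyl cyclases were scarce. Gucy2f, a cyclase known from photoreceptors, was at 1.16, 1.06 and 1.45 CPM in VAS+H2O, 0.31, 0.776 and 0.156 CPM in IMQ+H2O and 0.398, 1.36 and 0.844 CPM in IMQ+XYF, with a log2 fold change of −1.56 ± 0.61 under imiquimod (adjusted p = 0.196). Gucy2g was at 0.825, 0.667 and 1.15 CPM in VAS+H2O, 0.172, 0.485 and 0.429 CPM in IMQ+H2O and 0.411, 0.366 and 0.292 CPM in IMQ+XYF, with a log2 fold change of −1.26 ± 0.42 (adjusted p = 0.149). Gucy2e lay between 0.605 and 1.91 CPM, and its groups overlapped. For both Gucy2f and Gucy2g the IMQ+H2O libraries were below all VAS+H2O libraries, at 32 counts or fewer each.

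Members with a Pde symbol had 22 tested of 26, and 3 of the tested do not hydrolyze cyclic nucleotides. Under imiquimod 14 had a higher and 8 a lower level, and 3 were higher at an unadjusted p under 0.05 with 0 lower. With XYF 16 were lower and 6 higher, and at an unadjusted p under 0.05 these were 6 and 2. The 3 without cyclic nucleotide hydrolysis make up 2 of those lower and 1 of those higher with XYF, the latter at an unadjusted p under 0.05. The 3 tested members that hydrolyze cGMP alone (Pde5a, Pde6a and Pde9a) summed to 18.8, 25.8 and 29.6 CPM in VAS+H2O, 33.3, 33.8 and 28.7 CPM in IMQ+H2O and 18.6, 18.2 and 23.2 CPM in IMQ+XYF.

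Pde2a (ENSMUSG00000110195, chr7:101421691-101512827), which is stimulated by cGMP and hydrolyzes both messengers, stood at 8.15, 17.2 and 17.1 CPM in VAS+H2O, 24.3, 23.1 and 21.7 CPM in IMQ+H2O and 10.8, 5.31 and 4.72 CPM in IMQ+XYF. The IMQ+H2O libraries were the highest 3 of 9, and IMQ+XYF lay below them, with a log2 fold change of −1.73 ± 0.37 (adjusted p = 0.360). Leaving out 1 library at a time moved this log2 fold change from −2.20 without IMQ+XYF replicate 1 to −1.51 without IMQ+XYF replicate 3, with adjusted p from 0.180 to 0.617. Of the 6149 exonic bases of Pde2a, 3955 are shared on the same strand with the predicted gene Gm45837, so that the authors' counting could have split or dropped its reads. Against VAS+H2O the treated group had a log2 fold change of −1.02 ± 0.36 (adjusted p = 0.177).

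Pde9a (ENSMUSG00000041119, chr17:31386210-31476310), an enzyme of high affinity for cGMP, was at 6.09, 8.37 and 9.53 CPM in VAS+H2O, 15.9, 15.8 and 13.6 CPM in IMQ+H2O and 7.62, 4.7 and 9.14 CPM in IMQ+XYF. Its IMQ+H2O libraries lay above all other 6, with a log2 fold change of 0.92 ± 0.26 against VAS+H2O (adjusted p = 0.105), and IMQ+XYF lay below IMQ+H2O, with a log2 fold change of −1.08 ± 0.26 (adjusted p = 0.360). Treated and control libraries overlapped (a log2 fold change of −0.16 ± 0.26). Without IMQ+XYF replicate 2 the XYF log2 fold change of Pde9a was −0.82.

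Among the calmodulin-dependent phosphodiesterases, Pde1a was at 10.8, 11.5 and 11.8 CPM in VAS+H2O, 15.7, 14.9 and 13.9 CPM in IMQ+H2O and 17.4, 16.2 and 16.7 CPM in IMQ+XYF. In edgeR's fit it was the 1 higher member with an adjusted p under 0.05, in IMQ+XYF against VAS+H2O (a log2 fold change of 0.56 ± 0.11, adjusted p = 0.0418), and under imiquimod alone it had a log2 fold change of 0.39 ± 0.11 (adjusted p = 0.102). Pde1b was also higher under imiquimod, with a log2 fold change of 0.56 ± 0.22 (adjusted p = 0.206). Pde1c, in contrast, was at 2.77, 2.33 and 3.35 CPM in VAS+H2O, 2.41, 2.5 and 2.56 CPM in IMQ+H2O and 1.29, 2.22 and 1.17 CPM in IMQ+XYF, with a log2 fold change of −0.68 ± 0.28 for XYF (adjusted p = 0.404). Leaving out IMQ+XYF replicate 2 made Pde1c a called gene in IMQ+XYF against VAS+H2O (log2 fold change −1.15, adjusted p = 0.0295).

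The enzymes that hydrolyze cAMP alone had 6 of 8 members lower with XYF, 3 of them at an unadjusted p under 0.05. The 8, Pde4a to Pde4d and the Pde7 and Pde8 pairs, summed to 217 to 267 CPM in VAS+H2O, 231 to 249.7 CPM in IMQ+H2O and 204 to 229 CPM in IMQ+XYF. Pde8b was at 1.84, 2.25 and 2.17 CPM in VAS+H2O, 1.93, 2.06 and 1.76 CPM in IMQ+H2O and 1.29, 1.32 and 1.14 CPM in IMQ+XYF, and each IMQ+XYF library was below the other 6 (a log2 fold change of −0.61 ± 0.20 against IMQ+H2O, adjusted p = 0.364). Pde8a had a log2 fold change of −0.32 ± 0.11 with XYF (adjusted p = 0.378) and Pde7b a log2 fold change of −0.67 ± 0.24 (adjusted p = 0.379). The Pde4 enzymes, targets of drugs used in psoriasis, were not called. Pde4b, the highest of them, had a log2 fold change of −0.27 ± 0.21 under imiquimod and a log2 fold change of 0.09 ± 0.21 with XYF, and Pde4d had a log2 fold change of 0.29 ± 0.13 and a log2 fold change of −0.25 ± 0.13.

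A pair of genes with Pde symbols were higher with XYF at an unadjusted p under 0.05. Pde3b, a cGMP-inhibited enzyme of adipocytes, was at 41.1, 25 and 30 CPM in VAS+H2O, 22.7, 24.2 and 22.9 CPM in IMQ+H2O and 27.9, 49.5 and 31.8 CPM in IMQ+XYF, with a log2 fold change of 0.64 ± 0.24 (adjusted p = 0.384). Pde12, which despite its name degrades RNA tails and not cyclic nucleotides, was at 24.6, 30.5 and 27.3 CPM in VAS+H2O, 23.5, 29.4 and 25.7 CPM in IMQ+H2O and 61.9, 30.2 and 31.9 CPM in IMQ+XYF, with a log2 fold change of 0.66 ± 0.26 (adjusted p = 0.396), and its highest value came from IMQ+XYF replicate 1, without which the log2 fold change was 0.25. Pde4dip, the anchoring protein, spread from 89.1 to 409.9 CPM within the 9 libraries. Its highest and lowest libraries were VAS+H2O replicate 2 and IMQ+XYF replicate 1, which also had the highest and the lowest skeletal muscle marker sums. The part of muscle cells in the Pde4dip values was not tested.

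**Figure D4:**
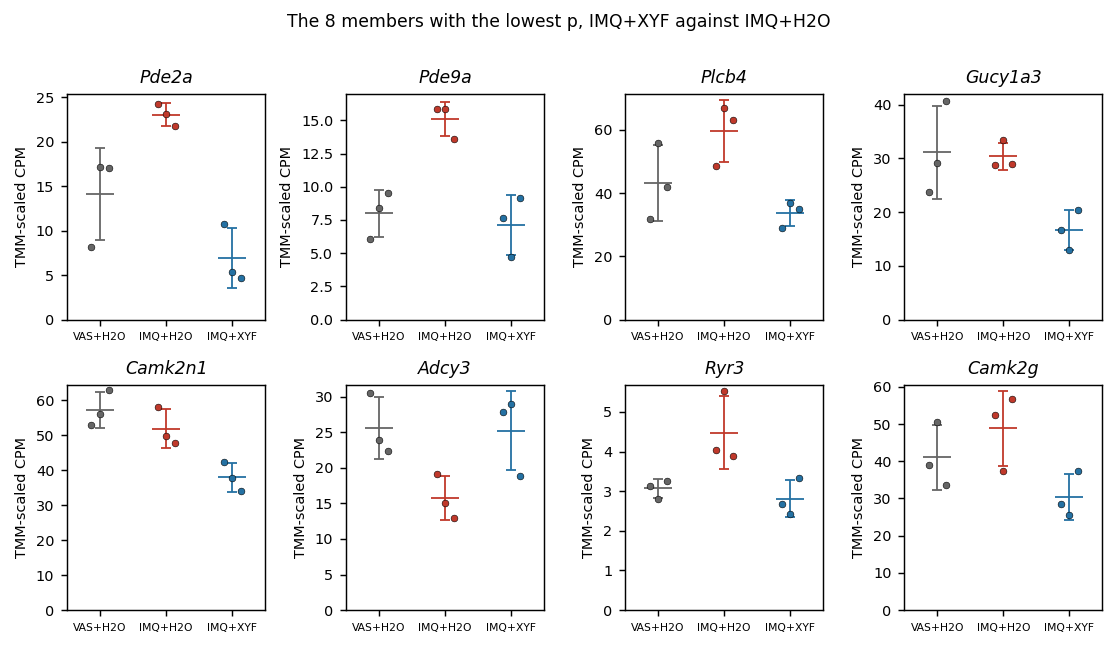
TMM-scaled CPM of the 8 members with the lowest unadjusted p in IMQ+XYF against IMQ+H2O, with a point for each library and bars for the group mean ± SD (n = 3). Pde2a and Pde9a were highest in all 3 IMQ+H2O libraries, whereas Gucy1a3 and Camk2n1 were lowest in all 3 IMQ+XYF libraries.

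Protein kinase A, the main cAMP effector, varied little. The regulatory subunits summed to 302 to 339 CPM in VAS+H2O, 333 to 344 in IMQ+H2O and 317 to 342 in IMQ+XYF, and the catalytic subunits Prkaca and Prkacb to between 105 and 145 CPM. Prkar1a had a log2 fold change of 0.11 ± 0.09 under imiquimod and a log2 fold change of −0.04 ± 0.09 with XYF, and Prkaca a log2 fold change of −0.07 ± 0.09 and a log2 fold change of −0.13 ± 0.09. The 1 subunit with an unadjusted p under 0.05 was Prkar2b, with a log2 fold change of −0.38 ± 0.16 for XYF (adjusted p = 0.420).

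The cGMP-dependent kinases were scarcer and noisier. Prkg1, the kinase of smooth muscle and platelets that the study lists among its shared epidermal genes, was at 15.9, 10.9 and 12.3 CPM in VAS+H2O, 11.1, 7.08 and 10.1 CPM in IMQ+H2O and 9.46, 14.7 and 9.64 CPM in IMQ+XYF, and its groups overlapped (a log2 fold change of −0.47 ± 0.25 under imiquimod, adjusted p = 0.311). Prkg2 was at 3.86, 8 and 9.37 CPM in VAS+H2O, 9.47, 10.3 and 16.3 CPM in IMQ+H2O and 7.16, 2.73 and 8.07 CPM in IMQ+XYF, with a log2 fold change of −1.01 ± 0.45 for XYF (adjusted p = 0.428), which was −0.64 without IMQ+XYF replicate 2.

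Phospholipases C had 10 tested members of 10, and their sum lay between 475 and 520 CPM in the 9 libraries with all groups overlapping. Plcb4, an isoform activated by Gq, was at 31.8, 55.9 and 42.1 CPM in VAS+H2O, 48.5, 67 and 63.3 CPM in IMQ+H2O and 29.1, 36.8 and 35.1 CPM in IMQ+XYF. All IMQ+XYF libraries lay below all IMQ+H2O libraries (a log2 fold change of −0.83 ± 0.21, adjusted p = 0.363 with edgeR and 0.0372 with DESeq2). Plcd1, known for its role in hair follicles and epidermis, was at 93, 66.4 and 68.9 CPM in VAS+H2O, 54, 48.8 and 50 CPM in IMQ+H2O and 60.1, 101 and 72.6 CPM in IMQ+XYF, lower with imiquimod in every library (a log2 fold change of −0.58 ± 0.20, adjusted p = 0.155) and higher with XYF in every library (a log2 fold change of 0.61 ± 0.20, adjusted p = 0.364). Keratinocyte markers moved the same way by group, lower for 9 of 10 genes under imiquimod and higher for 10 of 10 with XYF. Within IMQ+XYF their sums were 16860, 4379 and 5777 CPM, highest in replicate 1, where Plcd1 was lowest. Cartilage markers were lower for 12 of 12 under imiquimod and higher for 12 of 12 with XYF, with IMQ+XYF sums of 869, 2567 and 1475 CPM. Hair follicle markers were lower for 11 of 11 under imiquimod, with sums of 131 to 485 CPM against 6.96 to 41.0 CPM. They stayed low with XYF, at sums of 8.81 to 21.9 CPM. The part of these cells in the Plcd1 values was not tested. Plcg1, activated by tyrosine kinases, had a log2 fold change of −0.29 ± 0.10 with XYF (adjusted p = 0.371), and its hematopoietic relative Plcg2 a log2 fold change of 0.17 ± 0.12. Plce1, which the study lists among its shared epidermal genes, was at 73.9, 61.6 and 65.5 CPM in VAS+H2O, 59.3, 54.1 and 57.4 CPM in IMQ+H2O and 55.2, 72.8 and 65.6 CPM in IMQ+XYF, with a log2 fold change of −0.24 ± 0.12 and a log2 fold change of 0.18 ± 0.12, neither past an unadjusted p of 0.05.

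IP3 receptors, the release channels that phospholipase C opens, had lower levels under imiquimod, although none was called. Their sum was 459.8, 421 and 401 CPM in VAS+H2O, 296, 298 and 295 CPM in IMQ+H2O and 407, 381 and 311 CPM in IMQ+XYF, so that all 3 IMQ+H2O libraries were the lowest of the 9. Itpr3, most of this sum, was at 323, 287 and 261 CPM in VAS+H2O, 194, 202 and 195 CPM in IMQ+H2O and 296, 269 and 208 CPM in IMQ+XYF, with a log2 fold change of −0.56 ± 0.14 under imiquimod (adjusted p = 0.0845) and a log2 fold change of 0.39 ± 0.14 with XYF (adjusted p = 0.379). Itpr1 was at 93, 77.3 and 85.4 CPM in VAS+H2O, 59.4, 54.3 and 58.9 CPM in IMQ+H2O and 45.3, 71.4 and 60.7 CPM in IMQ+XYF, with a log2 fold change of −0.57 ± 0.16 under imiquimod (adjusted p = 0.104) and a log2 fold change of 0.04 ± 0.16 with XYF. Itpr2 was at 43.9, 56.4 and 55.1 CPM in VAS+H2O, 42.6, 42.5 and 40.7 CPM in IMQ+H2O and 66, 40.5 and 41.6 CPM in IMQ+XYF, and its IMQ+H2O libraries were below all VAS+H2O libraries (a log2 fold change of −0.31 ± 0.19, adjusted p = 0.389). Keratinocyte markers were lower under imiquimod for 9 of 10 genes, with sums of 2457 to 3685 CPM against 3946 to 7441 CPM, and higher with XYF for 10 of 10. Cartilage markers were lower for 12 of 12, with sums of 449.99 to 722 CPM against 1564 to 2666 CPM, and higher with XYF for 12 of 12. The part of these cells in the receptor values was not tested.

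Ryanodine receptors, the other release channels, were at very low levels, and their summed level was higher in each IMQ+H2O library (5.77 to 8.03 CPM) than in any VAS+H2O (3.64 to 5.37 CPM) or IMQ+XYF library (2.99 to 4.59 CPM). Ryr3 was at 3.13, 2.81 and 3.27 CPM in VAS+H2O, 4.03, 5.53 and 3.88 CPM in IMQ+H2O and 2.68, 2.42 and 3.33 CPM in IMQ+XYF, with a log2 fold change of 0.55 ± 0.21 under imiquimod (adjusted p = 0.192) and a log2 fold change of −0.67 ± 0.21 with XYF (adjusted p = 0.364). Ryr2, the cardiac form, was at 0.509, 1.64 and 2.1 CPM in VAS+H2O, 4, 2.43 and 1.89 CPM in IMQ+H2O and 0.311, 0.956 and 1.27 CPM in IMQ+XYF, with a log2 fold change of −1.72 ± 0.62 for XYF (adjusted p = 0.381). For both receptors every IMQ+XYF library was below every IMQ+H2O library. Ryr3 shares 916 exonic bases with Aven on the other strand.

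Calcium pumps of the endoplasmic reticulum and of the plasma membrane were both measured. In the endoplasmic reticulum, Atp2a2 was at 324, 428 and 289.7 CPM in VAS+H2O, 372, 368 and 394 CPM in IMQ+H2O and 338, 351 and 367 CPM in IMQ+XYF, and the VAS+H2O libraries overlapped both other groups (a log2 fold change of 0.12 ± 0.14 under imiquimod and a log2 fold change of −0.10 ± 0.14 with XYF). Atp2a3, a form of blood and endothelial cells, was at 57.3, 48.2 and 52.1 CPM in VAS+H2O, 36.6, 52.5 and 45.1 CPM in IMQ+H2O and 27.6, 34.6 and 34.4 CPM in IMQ+XYF, with all IMQ+XYF libraries below the other 6 (a log2 fold change of −0.48 ± 0.15 against IMQ+H2O, adjusted p = 0.364; a log2 fold change of −0.71 ± 0.15 against VAS+H2O, adjusted p = 0.0536). At the plasma membrane, the summed pumps had separate ranges, with 326, 358 and 383 CPM in VAS+H2O and 239, 251 and 246 CPM in IMQ+H2O, with 244, 252 and 254 CPM in IMQ+XYF. Atp2b4 (ENSMUSG00000026463, chr1:133699457-133801041) was at 180.5, 227 and 227 CPM in VAS+H2O, 133, 156 and 139.9 CPM in IMQ+H2O and 145, 132 and 135 CPM in IMQ+XYF. Compared with VAS+H2O it had a log2 fold change of −0.56 ± 0.12 in IMQ+H2O (adjusted p = 0.0576) and a log2 fold change of −0.62 ± 0.12 in IMQ+XYF (adjusted p = 0.0413). Atp2b1, the housekeeping form, was at 144, 131 and 155 CPM in VAS+H2O, 104, 93.1 and 104 CPM in IMQ+H2O and 97.6, 119 and 118 CPM in IMQ+XYF, with a log2 fold change of −0.51 ± 0.11 under imiquimod (adjusted p = 0.0668). Between the imiquimod groups Atp2b4 had a log2 fold change of −0.06 ± 0.12 and Atp2b1 a log2 fold change of 0.15 ± 0.11. Atp2b2, a form of sensory cells, was at 1.26, 0.5 and 1.59 CPM in VAS+H2O, 2.58, 1.97 and 1.56 CPM in IMQ+H2O and 0.684, 0.895 and 1.04 CPM in IMQ+XYF, with a log2 fold change of 0.84 ± 0.41 under imiquimod (adjusted p = 0.280) and a log2 fold change of −1.22 ± 0.41 for XYF (adjusted p = 0.378). Beside the lower sum of these pumps under imiquimod, 9 of 10 dermal fibroblast markers were lower, with sums of 12539 to 19594 CPM against 16944 to 28171 CPM, as were 9 of 10 keratinocyte, 12 of 12 cartilage and 11 of 11 hair follicle markers. With XYF, where the pump sum stayed low, 10 of 10 keratinocyte and 12 of 12 cartilage markers were higher. Dermal fibroblast markers were lower with XYF for 6 of 10, and hair follicle markers stayed low, at sums of 8.81 to 21.9 CPM. The part of these cells in the pump values was not tested.

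Voltage-gated calcium channels had 7 tested members of 9, and Cacna1g carried most of their counts. Cacna1g (ENSMUSG00000020866, chr11:94408391-94474198), a T-type channel that opens at low voltage, was at 120.1, 108 and 122 CPM in VAS+H2O, 75.4, 74.6 and 62.5 CPM in IMQ+H2O and 62.5, 77.8 and 71.2 CPM in IMQ+XYF. All 6 imiquimod libraries lay below all 3 VAS+H2O libraries, with a log2 fold change of −0.72 ± 0.12 in IMQ+H2O (adjusted p = 0.0314) and a log2 fold change of −0.72 ± 0.12 in IMQ+XYF (adjusted p = 0.0302), and the imiquimod groups had a log2 fold change of −0.01 ± 0.12 between them. Leaving out any 1 of the 6 VAS+H2O and IMQ+H2O libraries took the adjusted p under imiquimod above 0.05, to between 0.0668 and 0.128, with log2 fold changes from −0.78 to −0.62. Cartilage and hair follicle markers were also lower in IMQ+H2O, for 12 of 12 and 11 of 11 tested genes. With XYF the cartilage markers were higher for 12 of 12, with sums of 869 to 2567 CPM against 449.99 to 722 CPM. The hair follicle markers stayed low with XYF, at sums of 8.81 to 21.9 CPM. The part of these cells in the Cacna1g values was not tested.

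The other T-type channel tested, Cacna1h, was at 2.94, 3.28 and 5.61 CPM in VAS+H2O, 3.79, 5.05 and 4.08 CPM in IMQ+H2O and 1.75, 0.63 and 3.25 CPM in IMQ+XYF, with a log2 fold change of −1.19 ± 0.51 for XYF (adjusted p = 0.417), which was −0.76 without IMQ+XYF replicate 2 and −1.83 without IMQ+XYF replicate 3. Cacna1h shares 158 of its 9763 exonic bases with Tpsg1 on the other strand. Of the L-type channels, Cacna1c, that of smooth muscle, had a log2 fold change of −0.52 ± 0.25 with XYF (adjusted p = 0.457) and Cacna1d a log2 fold change of −0.24 ± 0.27. The P/Q-type channel Cacna1a was at 8.85, 10.1 and 11.5 CPM in VAS+H2O, 7.72, 8.13 and 9.77 CPM in IMQ+H2O and 4.03, 5.88 and 7.37 CPM in IMQ+XYF, with a log2 fold change of −0.57 ± 0.23 for XYF (adjusted p = 0.400). The R-type channel Cacna1e spread from 6.14 to 32.4 CPM with overlapping groups. Cacna1b, the N-type channel, had counts of 0, 5 and 0 in VAS+H2O, of 9, 13 and 6 in IMQ+H2O and of 28, 9 and 15 in IMQ+XYF. At so few counts its fitted fold change depends on the prior count, and none is given.

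The CaMKII family had 6 tested members. The 4 kinase subunits summed to 105, 136 and 94.9 CPM in VAS+H2O, 129, 118 and 132 CPM in IMQ+H2O and 88.2, 87.6 and 96.2 CPM in IMQ+XYF. Camk2g was at 38.9, 50.6 and 33.6 CPM in VAS+H2O, 52.3, 37.5 and 56.6 CPM in IMQ+H2O and 28.5, 25.5 and 37.4 CPM in IMQ+XYF, with a log2 fold change of −0.68 ± 0.22 for XYF (adjusted p = 0.364). Camk2b, the form of brain and skeletal muscle, was at 24.8, 34.4 and 22 CPM in VAS+H2O, 28.3, 20.3 and 23 CPM in IMQ+H2O and 5.39, 18.9 and 8.59 CPM in IMQ+XYF, with a log2 fold change of −1.13 ± 0.41 for XYF (adjusted p = 0.381). In both, all IMQ+XYF libraries were below all IMQ+H2O libraries, and for Camk2b the library lowest in skeletal muscle markers, IMQ+XYF replicate 1, was the lowest. The sums of these markers were 2256, 3461 and 724 CPM in VAS+H2O, 2992, 1590 and 3336 CPM in IMQ+H2O and 162, 1174 and 787 CPM in IMQ+XYF. The part of muscle cells in the Camk2b values was not tested. Without IMQ+XYF replicate 2, Camk2b was called in IMQ+XYF against VAS+H2O (log2 fold change −1.91, adjusted p = 0.0122). Camk2d, the widespread form, was higher under imiquimod, with a log2 fold change of 0.32 ± 0.14 (adjusted p = 0.232), and Camk2a, the neuronal form, was at 1.46, 1.81 and 0.911 CPM in VAS+H2O, 0.999, 0.437 and 0.273 CPM in IMQ+H2O and 0.734, 0.468 and 0.925 CPM in IMQ+XYF, with a log2 fold change of −1.31 ± 0.51 (adjusted p = 0.193).

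The inhibitor Camk2n1 was at 52.9, 56 and 63.1 CPM in VAS+H2O, 58.2, 49.9 and 47.7 CPM in IMQ+H2O and 42.2, 37.7 and 34 CPM in IMQ+XYF. Its IMQ+XYF libraries were the lowest of the 9, with a log2 fold change of −0.45 ± 0.12 against IMQ+H2O (adjusted p = 0.364) and a log2 fold change of −0.59 ± 0.12 against VAS+H2O (adjusted p = 0.0492). Under imiquimod it had a log2 fold change of −0.14 ± 0.12. The related Camk2n2 stayed between 1.32 and 1.99 CPM.

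**Figure D5:**
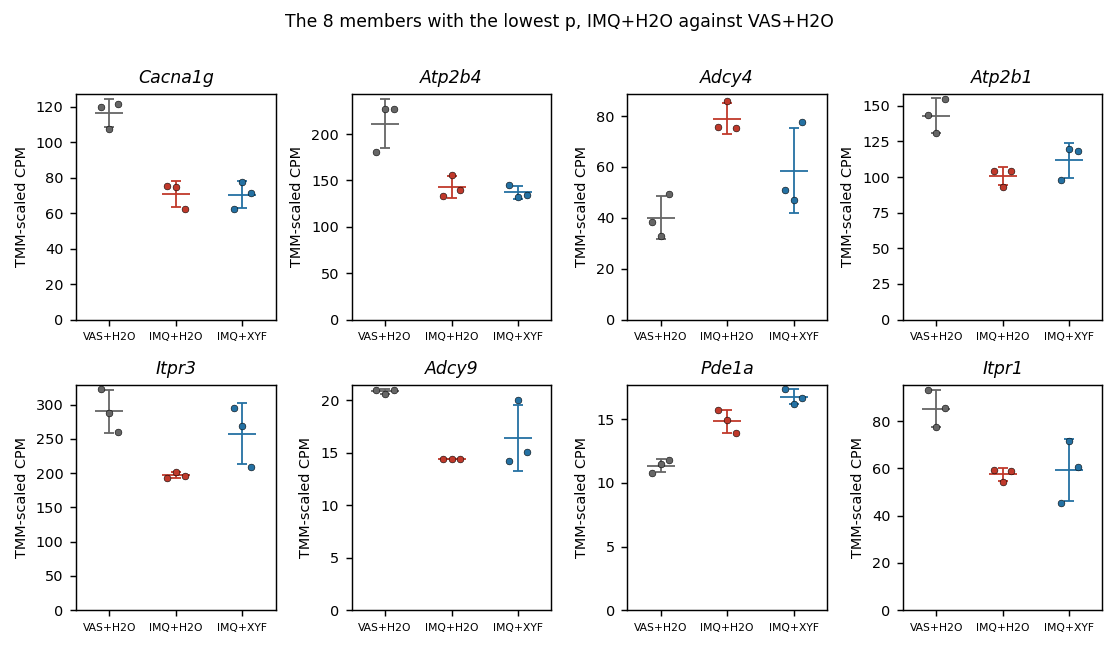
TMM-scaled CPM of the 8 members with the lowest unadjusted p in IMQ+H2O against VAS+H2O, with a point for each library and bars for the group mean ± SD (n = 3). Cacna1g, Atp2b4 and Atp2b1 were lower in both imiquimod groups, whereas Itpr3 and Itpr1 had their highest values in VAS+H2O and Adcy4 its highest in IMQ+H2O.

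The 12 members without a test had few counts. Pde6c had 0 counts in all 9 libraries, which allows up to 3 counts or 0.0373 to 0.103 CPM in a library. Gucy2c, the intestinal receptor of guanylin, had 0, 0 and 5 counts in VAS+H2O, 0 in each IMQ+H2O library and, with XYF, 20, 11 and 5 counts. The T-type channel Cacna1i had 5, 0 and 24 counts in VAS+H2O and 0 in all 6 imiquimod libraries. Adcy8, Atp2b3, Cacna1f, Gucy1b2, Gucy2d, Pde6b, Pde6g, Pde6h and the pseudogene Prkaca-ps1 had at most 0.586 CPM in any library. The floor reflects counting error alone, as no molecular identifiers marked the reads.

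Other genes of these pathways were taken from 8 lists, with 135 genes found and 131 tested. Under imiquimod 1 was called higher and 2 lower, together 2.29% of those tested beside 0.994% of all genes. Nos3, the endothelial nitric oxide synthase upstream of the soluble cyclase, was at 26.7, 33.1 and 44.5 CPM in VAS+H2O, 91.1, 94.7 and 99.8 CPM in IMQ+H2O and 57.9, 38.3 and 84.7 CPM in IMQ+XYF, with a log2 fold change of 1.45 ± 0.28 (adjusted p = 0.0478). Nfatc2, a transcription factor activated by calcineurin, was at 43.5, 74.7 and 81.6 CPM in VAS+H2O, 25.1, 27.4 and 23.4 CPM in IMQ+H2O and 22.4, 29.5 and 30.8 CPM in IMQ+XYF, with a log2 fold change of −1.40 ± 0.23 (adjusted p = 0.0314), and Camkk1, a calmodulin-dependent kinase kinase, had a log2 fold change of −1.17 ± 0.21 (adjusted p = 0.0407). At an unadjusted p under 0.05, 11 of the 131 were higher (8.4%, all genes 10.1%) and 20 lower (15.3%, all genes 10.8%).

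With XYF 0 of the 131 were called by edgeR, against 0.00892% of all genes. At an unadjusted p under 0.05, 11 were higher (8.4%, all genes 6.35%) and 16 lower (12.2%, all genes 5.39%). The lowest p was that of Nos1, the neuronal nitric oxide synthase, at 3.52, 4.53 and 3.71 CPM in VAS+H2O, 11.3, 4.15 and 7.41 CPM in IMQ+H2O and 1.82, 2.7 and 2.08 CPM in IMQ+XYF, with a log2 fold change of −1.79 ± 0.35 (adjusted p = 0.355). Of the 9 nitric oxide synthases, natriuretic peptides and their receptors, 5 had lower and 4 higher levels with XYF, and none was called. The natriuretic peptide receptor Npr1 had a log2 fold change of −0.68 ± 0.20 (adjusted p = 0.364) and Nos3 a log2 fold change of −0.66 ± 0.28 (adjusted p = 0.409), while Nppb, the brain natriuretic peptide, had a log2 fold change of 1.63 ± 0.57 (adjusted p = 0.379). Rcan2, an inhibitor of calcineurin, had a log2 fold change of −1.37 ± 0.31 (adjusted p = 0.360), and the store proteins Casq2 and Jph2, both known from muscle, a log2 fold change of −1.36 ± 0.36 and a log2 fold change of −1.14 ± 0.31. Creb1, the transcription factor that protein kinase A phosphorylates, was at 51, 59.1 and 61.8 CPM in VAS+H2O, 40.3, 21.2 and 35.5 CPM in IMQ+H2O and 58.2, 57.1 and 58.9 CPM in IMQ+XYF, so that its IMQ+H2O libraries were the lowest of the 9 (a log2 fold change of −0.83 ± 0.21 under imiquimod, adjusted p = 0.0838; a log2 fold change of 0.85 ± 0.21 with XYF, adjusted p = 0.360).

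In IMQ+XYF against VAS+H2O, 9 of the 131 were higher at an unadjusted p under 0.05 (6.87%, all genes 9.58%). At the same limit 25 were lower (19.1%, all genes 8.76%). edgeR called 3.05% of the 131, beside 1.2% of all genes, and the called genes included 2 that were higher. Nppb was at 0.388, 0.139 and 0.429 CPM in VAS+H2O, 1.76, 2.57 and 1.77 CPM in IMQ+H2O and 6.46, 1.89 and 10.5 CPM in IMQ+XYF, with a log2 fold change of 4.25 ± 0.66 (adjusted p = 0.0273), and Calr, a calcium-binding chaperone of the endoplasmic reticulum, had a log2 fold change of 1.01 ± 0.16 (adjusted p = 0.0274). Nfatc2 had a log2 fold change of −1.27 ± 0.23 (adjusted p = 0.0383) and was called lower. By list, median log2 fold changes with XYF ran from −0.46 for the accessory subunits of calcium channels and −0.31 for store-operated entry, exchangers and store proteins, through −0.20 for nitric oxide synthases and natriuretic peptide receptors, −0.16 for other cyclic nucleotide effectors and anchors, −0.12 for protein kinase C and diacylglycerol kinases and −0.07 for G protein alpha subunits, to 0.09 for the CREB family and 0.10 for calmodulin, calcineurin and NFAT. The median of all 131 was −0.08, beside 0.01 over all genes tested.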

How the data were processed

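RNA was sequenced from ear dermis in 9 libraries, 3 from each group. The deposited table holds raw read counts per Ensembl gene, which the authors made from reads aligned with STAR to GRCm38. The counting tool, its use of the strand and its treatment of multiply aligned reads are not given in the sources used here. Per the labels, STAR 2.5 and DESeq 1.22.1 were used.

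Members and lists were chosen with earlier results of these data known. Genes were tested with edgeR 4.0.16 in R 4.3.3: filterByExpr, TMM factors and 1 quasi-likelihood fit over all 9 libraries, which left 22430 of 52550 genes. Adjusted p-values are Benjamini-Hochberg values over all genes tested, and standard errors are the size of the log2 fold change over the root of F. The common biological coefficient of variation was 0.296. Total counts of 28756305 to 79836881 put 3 counts at 0.0373 to 0.103 CPM. On simulated counts with 100 genes changed at each size, the imiquimod comparison recovered 86% at a log2 change of 2 and 97% at 3 over 21834 genes. No recovery is given for smaller changes, which most members had, or for the comparisons with XYF. Exon lengths and coordinates are from GENCODE vM21 (GRCm38), promoters from RefSeq.

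Members were named where called, among the 10 lowest p-values of a comparison, highest per kilobase in their family, or listed by the study (Plce1, Prkg1). Pathway genes were named where called or among the 3 lowest p-values of their list, except that a called gene is not reported here. Further members with an unadjusted p under 0.05 were named after their values were seen, as were family relatives set beside them. Alternatives were DESeq2 1.42.0, RLE factors, no filter, a CPM of 1 in 3 libraries, a replicate block, the compared groups alone, each library left out and no fold limit. The gene symbol Irag1 of the pathway lists was not matched.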

Additional observations from a re-analysis of the deposited data

How the results depend on the processing

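The count of called members was 0 in each of the 3 comparisons. Under imiquimod it became 1 (Adcy4) with a CPM of 1 in 3 libraries, 1 (Adcy4) with the compared groups alone and 1 (Cacna1g) without the fold limit. For XYF it became 2 with DESeq2 (Pde2a, Pde9a), and for IMQ+XYF against VAS+H2O 1 with DESeq2 (Camk2b), 4 without the fold limit and 0 to 2 with 1 library left out, the 2 (Camk2b, Pde1c) without IMQ+XYF replicate 2. The cause of these differences was not tested. The median log2 fold change of members under imiquimod, −0.06, was −0.0368 with DESeq2, −0.0328 with RLE factors, −0.0290 with a CPM of 1 in 3 libraries and −0.1095 to −0.0024 with 1 library left out, so it is close to 0 under all of these. The medians for XYF (−0.17) and for IMQ+XYF against VAS+H2O (−0.27) moved by less than 1 SD under every alternative run.

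Counts at an unadjusted p under 0.05 were recomputed after the data were seen. Of members higher under imiquimod, 6 became 10 with DESeq2 and 3 to 8 with 1 library left out. Members lower with XYF, 20, numbered 12 to 23 with 1 library left out (12 without IMQ+XYF replicate 1, 13 without IMQ+H2O replicate 1) and 17 to 23 otherwise, and those higher, 5, numbered 3 to 6 with 1 library left out. Members higher in IMQ+XYF than in VAS+H2O, 3, became 5 with DESeq2, 6 with RLE factors, 5 without a filter and 1 to 6 with 1 library left out. The 10 members with the lowest p in each comparison gave 450 values under the alternatives. Of these, 446 kept their direction and side of the threshold, 4 newly passed it (Adcy4 in 2 fits, Pde2a and Pde9a with DESeq2) and 0 reversed. Camk2b and Pde1c, which alternatives called in IMQ+XYF against VAS+H2O, lay outside this set.

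Replicate numbers recur in the 3 groups, but same-numbered libraries deviated together with r from −0.2523 to 0.1878 across genes, so the numbers only name libraries. With the replicate block, 0 members were called in each comparison, and the medians were −0.0637, −0.1348 and −0.2484. With 3 libraries a group and a common biological coefficient of variation of 0.296, smaller changes of single members may go uncalled, and levels under 0.103 CPM lie at the floor of the shallowest library.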

Other observations

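The skeletal muscle genes left out of the members had wide spreads. Atp2a1, the calcium pump SERCA1, stood at 283, 439 and 94.3 CPM in VAS+H2O, 417, 199.9 and 436 CPM in IMQ+H2O and 17.5, 141 and 90.7 CPM in IMQ+XYF. Cacna1s, the calcium channel of skeletal muscle, stood at 17.2, 29.5 and 6.67 CPM, 20.7, 11.6 and 23.6 CPM, and 0.796, 9.86 and 5.28 CPM in the same groups. Both had their lowest value in IMQ+XYF replicate 1, and neither was called with XYF by edgeR (Atp2a1 log2 fold change −2.08 ± 0.76, adjusted p = 0.381; Cacna1s −1.82 ± 0.80, adjusted p = 0.424).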
